A study of Mus musculus with 6 samples.

Results

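The subunits described here are nuclear-encoded parts of complexes I to IV of the mitochondrial respiratory chain. They were listed by name, 46 genes in all, by a rule that uses no measured value, and 41 of them had a probe set among the 16387 named genes of the array. The list was chosen with earlier results of these data known, so its shares beside those of all genes are descriptions. The measured genes were 25 of 27 for complex I, 4 of 4 for complex II, 5 of 6 for complex III and 7 of 9 for complex IV. Ndufa4 was counted with complex IV, to which it is now assigned, although its name places it in complex I. No probe set was named for Ndufs3, Ndufab1, Uqcrb, Cox5b or Cox7b. Affymetrix arrays were hybridised with total RNA from the mouse macrophage line RAW264.7. Cells of clone 8, stably transfected with a pEF6/V5-His vector that carries an Ms4a8a cDNA, gave 3 arrays, and cells of clone 3, transfected with the empty vector, gave the other 3. Both clones had been selected with blasticidin and were grown for 48 h in medium with serum before RNA isolation. Each arm is 1 clone, so the transgene and the clone cannot be told apart. The design text writes Ms4a4a once, where it describes expression in the selected clone. The titles number the arrays 1, 2 and 3 in each clone, and the labels used here do not say what a number stands for. The subunits were compared between the clones and between the numbers.

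Complex I takes electrons from NADH and complex II takes them from succinate. Both pass them through ubiquinone to complex III, cytochrome c and complex IV, where oxygen is reduced, and complexes I, III and IV pump protons that drive ATP synthase. Most subunits are encoded in the nucleus, and the rest in mitochondrial DNA. In macrophages, classical activation is known to lower respiration in favour of glycolysis, while alternative activation relies on oxidative metabolism.

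All 41 subunits gave strong probe signals. Their deposited log2 levels lay between 9.60 and 13.69, and the mean of each was above 8.46, the 75th percentile of the gene means. Such a level is a probe signal and does not rank transcripts of different genes by amount. Ms4a8a, which checks the labels, read 7.40, 7.90 and 8.15 on Ms4a8a arrays and 3.07, 3.32 and 3.22 on vector arrays, a log2 difference of 4.61 (SE 0.20, limma adjusted p = 0.0121). All 12 macrophage markers listed had a probe set, among them Csf1r between 12.66 and 12.98, Cd68 between 12.71 and 13.21, and Mrc1 at most 4.74. Markers of other cell types stayed low, between 2.66 and 5.62 for 7 of 10 B and T cell genes, 3.03 and 4.83 for 6 epithelial genes and 2.77 and 5.17 for 7 fibroblast genes. The arrays of number 3 stood apart from the others in both clones. Their deviations from the clone means correlated across genes at 0.865 between the clones. The results with and without single arrays are therefore given below. In bulk RNA, fewer cells of a type and less RNA per cell cannot be told apart.

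The promoters of the 4 subunits whose differences between the numbers passed the test under every setting tried are shown first. Whether these sequences bear on the differences was not tested. The windows run from 250 bases before to 50 bases after the annotated gene start, 5′ to 3′ on the gene's strand, and come from RefSeq on GRCm38.p6. Capitals mark matches, on either strand, to 3 motifs of transcription factors known to act on nuclear genes of respiration: the NRF1 consensus, CCGGAAG for the ETS factor GABP and AAGATGG for YY1. Ndufa5 lies on the minus strand at chr6:24527477-24527776, with no match in this window. Ndufa6 lies on the minus strand at chr15:82354242-82354541 and has an NRF1 match that starts at base 23 after the start. Ndufb8 lies on the minus strand at chr19:44555393-44555692 and has a YY1 match that starts at base 39 after the start. Ndufa4 lies on the minus strand at chr6:11907401-11907700, also with no match.
Ndufa5: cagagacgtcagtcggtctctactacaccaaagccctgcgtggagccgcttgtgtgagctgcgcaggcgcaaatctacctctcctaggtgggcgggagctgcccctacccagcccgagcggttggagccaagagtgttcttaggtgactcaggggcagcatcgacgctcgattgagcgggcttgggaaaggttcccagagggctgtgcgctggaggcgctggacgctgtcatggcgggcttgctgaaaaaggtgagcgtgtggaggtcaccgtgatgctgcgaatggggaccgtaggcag
Ndufa6: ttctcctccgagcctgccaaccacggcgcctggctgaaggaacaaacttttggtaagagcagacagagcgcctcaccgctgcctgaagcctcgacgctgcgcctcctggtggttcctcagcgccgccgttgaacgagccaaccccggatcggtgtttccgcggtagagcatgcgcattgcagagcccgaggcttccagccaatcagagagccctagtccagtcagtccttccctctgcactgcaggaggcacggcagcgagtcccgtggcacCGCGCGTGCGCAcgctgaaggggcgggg
Ndufb8: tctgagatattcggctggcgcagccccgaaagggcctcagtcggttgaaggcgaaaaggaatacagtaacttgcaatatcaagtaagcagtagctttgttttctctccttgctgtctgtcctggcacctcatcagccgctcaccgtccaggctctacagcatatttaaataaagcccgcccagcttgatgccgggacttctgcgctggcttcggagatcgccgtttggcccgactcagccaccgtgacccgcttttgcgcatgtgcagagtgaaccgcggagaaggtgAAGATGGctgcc
Ndufa4: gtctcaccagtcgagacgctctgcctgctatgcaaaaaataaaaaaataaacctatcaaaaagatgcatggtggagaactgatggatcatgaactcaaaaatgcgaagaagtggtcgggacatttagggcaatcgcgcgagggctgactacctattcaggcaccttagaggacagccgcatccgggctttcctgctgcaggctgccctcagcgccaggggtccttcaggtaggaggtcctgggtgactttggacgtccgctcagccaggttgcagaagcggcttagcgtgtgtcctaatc

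Windows were listed for 32 of the 41 measured subunits, 34 windows in all. The NRF1 pattern occurred in 3 of them (8.82%, against 1.27% of all 32851 windows), the ETS pattern in 7 (20.6% against 8.86%) and the YY1 pattern in 6 (17.6% against 6.34%). A match to at least 1 pattern was found for 15 subunits, 1 of which had 2 patterns, and no matches to different patterns overlapped. A match is a description of letters, not a site of binding, and no match says only that these letters are not in the window.

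The subunits differed little between the clones. Across the 41 genes the log2 difference, Ms4a8a clone minus vector clone, had a median of 0.01 and lay between -0.11 and 0.18. The median absolute difference was 0.04, against 0.08 over all genes. The sign was positive for 23 subunits and negative for 18. None passed the limma test, in which 7 of 16387 genes (0.0427%) passed, and none had an unadjusted p under 0.05. When the number was added to the limma model as a block, which is called blocked here, 149 genes (0.909%) and again 0 subunits passed. Only Ndufs8 had an unadjusted p under 0.05 in the blocked fit, and its limma adjusted p was 0.374. The 95% intervals of the blocked fit ranged from -0.33 to 0.37 over the subunits, and no interval reached further. Without the block they ranged from -1.04 to 1.07. A test that was not passed does not show equal levels.

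**Figure D1:**
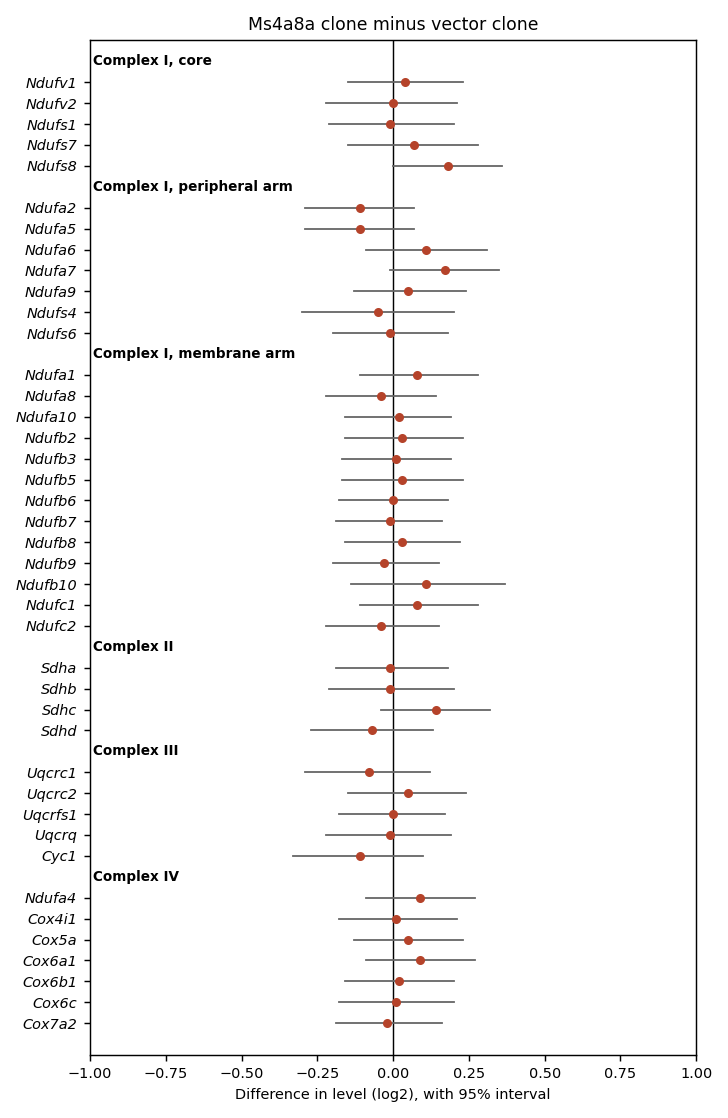
Log2 difference of each measured subunit, Ms4a8a clone minus vector clone, grouped by complex. Points are differences of the means of 3 arrays, and lines are 95% intervals of the blocked limma fit. The points lie between -0.11 and 0.18, and no interval reaches beyond -0.33 or 0.37.

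In 2 subunits every Ms4a8a array was above every vector array. They were 4.88% of the subunits, against 3.89% of all genes. The reverse order occurred in 0 subunits, against 3.99% of all genes. Ndufs8, an iron-sulfur subunit of the complex I core, read 12.43, 12.32 and 12.32 on Ms4a8a arrays 1 to 3 and 12.29, 12.17 and 12.07 on vector arrays 1 to 3. Its means were 12.36 ± 0.07 in the Ms4a8a clone and 12.18 ± 0.11 in the vector clone (SD, n = 3 each), a difference of 0.18 (blocked 95% interval 0.00 to 0.36). Sdhc, a membrane anchor of complex II, averaged 11.09 ± 0.05 in the Ms4a8a clone and 10.95 ± 0.02 in the vector clone (SD, n = 3 each), a difference of 0.14 (-0.04 to 0.32, blocked adjusted p = 0.491). For both genes the 2 sets of arrays did not overlap, and neither difference passed the test.

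The difference between the clones varied with the number. Its median over the subunits was -0.01 at number 1, -0.00 at number 2 and 0.06 at number 3, with 16, 17 and 31 of 41 positive. At number 3 the share was 75.6%, against 51.8% of all genes. All 5 measured core subunits of complex I and all 4 subunits of complex II were higher on the Ms4a8a array than on the vector array at number 3, and the median of the core was 0.17. With 1 array per clone and number these differences have no replicate check. In fits without the block, the median clone difference was 0.09 without Ms4a8a array 3 and -0.11 without vector array 3. Each of these fits kept a number 3 array in 1 clone only. Most subunits were lower at number 3, as described below, so these medians cannot be told apart from the difference between the numbers.

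Far more subunits passed a test between the replicate numbers than between the clones. In the moderated F test of the number, with the clone in the model, 19 of 41 subunits passed (46.3%), against 30.1% of all genes. No F test share is given for genes with equally strong signal. In the contrasts described below, those genes passed about as often as the subunits when both directions are counted. Number 3 was lower than number 1 in 20 subunits (48.8%, against 16.2% of all genes) and higher in 3 (7.32%, against 14.9%), while 18 did not pass. Number 3 was lower than number 2 in 19 subunits (46.3%, against 17.5%) and higher in 4 (9.76%, against 15.9%). These contrasts share the number 3 arrays and are not independent; 18 subunits were lower and 3 higher in both. The median log2 difference was -0.30 for number 3 over number 1 and -0.32 for number 3 over number 2, and that of all genes was -0.03 in each. Between numbers 2 and 1, 0 subunits and 0% of all genes passed, no subunit had an unadjusted p under 0.05, and the median was -0.03, with a range from -0.16 to 0.09.

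Genes with probe signals as strong as those of the subunits were also lower at number 3 more often than all genes. Among the 1869 genes whose mean was at or above 9.73, the lowest mean of a subunit, number 3 was lower than number 1 in 33.3% and higher in 22.8%, with a median of -0.10. For number 3 over number 2 the same genes were lower in 34.9% and higher in 24.1%, with a median of -0.11. The shares of subunits that were lower, 48.8% and 46.3%, lay above both backgrounds, and the shares that were higher, 7.32% and 9.76%, below them. Affymetrix control sets, taken here as a measure of RNA quality, moved with the number too. The log2 signal of the 3′ set minus that of the 5′ set was 0.45 and 0.62 for Actb on the number 3 arrays of the Ms4a8a and the vector clone, against 0.12 to 0.17 on the other 4 arrays. For Tfrc it was 1.46 and 1.39, against 0.83 to 0.90, for Pcx 0.86 and 0.91, against 0.33 to 0.50, and for Gapdh -0.06 and -0.12, against -0.19 to -0.16. The part of this shift in the results by number was not tested.

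The counts by number were sensitive to single arrays and to scaling. The number of subunits lower at number 3 than at number 1 was 5 without vector array 1, 9 without Ms4a8a array 1, 11 without Ms4a8a array 2 or vector array 2 and 12 without vector array 3, and the number lower than at number 2 was 5 without Ms4a8a array 2 or vector array 2 and 9 without vector array 3. Under cyclic loess scaling 9 subunits were lower and 4 higher at number 3 than at number 1, and 8 were lower and 6 higher than at number 2, with a median of -0.19 in each. All genes then had 13.5% lower and 16.8% higher for number 3 over number 1, and 14.8% lower and 18% higher for number 3 over number 2. The number of subunits higher at number 3 was 1 without Ms4a8a array 1 or vector array 1 for number 3 over number 1, and 1 without Ms4a8a array 2 and 2 without vector array 2 for number 3 over number 2. The F test passed in 8 subunits without Ms4a8a array 2, 9 without vector array 2, 10 without vector array 3 and 12 without vector array 1. Leaving out an array of number 1 or 2 left that number with 1 array. The shares of all genes that passed then fell as well, most of all in the contrast with that number. In the refits with the fewest lower subunits, their share lay little above that of all genes. No share is given for genes with equally strong signal in the refits or under cyclic loess scaling. With all arrays those genes were lower more often than all genes, so the refits do not show whether an excess of lower subunits remained. Ndufa5, Ndufa6, Ndufb8 and Ndufa4 passed in both contrasts in all 12 alternatives.

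**Figure D2:**
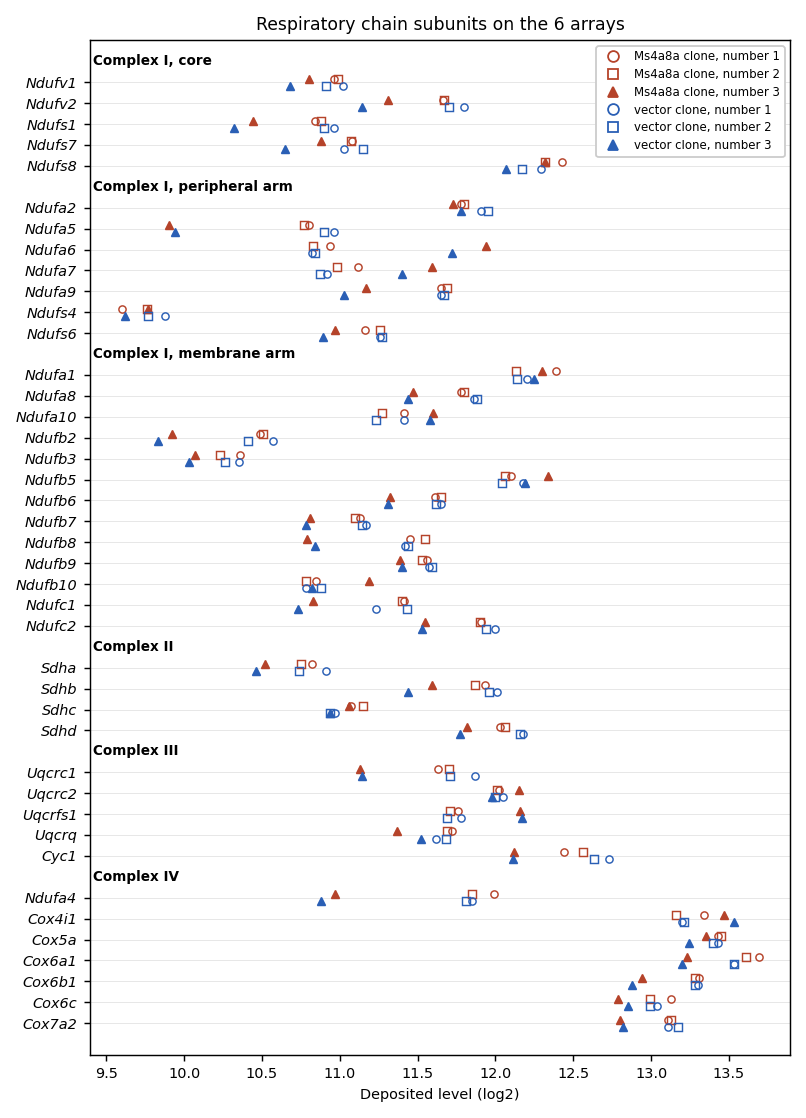
Deposited log2 level of each measured subunit on all 6 arrays, grouped by complex. Red symbols are the Ms4a8a clone and blue symbols the vector clone, and filled triangles are the number 3 arrays. Filled triangles of both colours lie left of the open symbols in 28 subunits and right of them in 6.

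The number 3 arrays of both clones were below the other 4 arrays in 28 subunits (68.3%, against 28.4% of all genes) and above them in 6 (14.6%, against 22.3%). The median log2 difference of number 3 over number 1 was -0.29 in complex I, -0.34 in complex II, -0.23 in complex III and -0.30 in complex IV. In complex I, 12 of 25 subunits were lower and 2 higher, in complex II 2 of 4 were lower, in complex III 2 of 5 were lower and 1 higher, and in complex IV 4 of 7 were lower. Over all genes 16.2% were lower and 14.9% higher, and over genes with equally strong signal 33.3% and 22.8%, so that counts of 2 among 4 or 5 subunits lie near the background of genes with equal signal. Under cyclic loess scaling 7 subunits of complex I were lower and 2 higher, 0 of complex II passed, and complexes III and IV each had 1 lower and 1 higher, with medians of -0.19, -0.23, -0.11 and -0.15 for complexes I to IV. Differences between complexes were not tested.

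The core of complex I carries the NADH site and the iron-sulfur clusters, and 2 of its 5 measured subunits were lower at number 3. This share of 40% in the contrast with number 1 lay near the 33.3% of genes with equally strong signal (16.2% of all genes). Ndufs1, the largest subunit of the complex, read 10.44 on number 3, against 10.84 and 10.88 on numbers 1 and 2 of the Ms4a8a clone, and 10.32 against 10.96 and 10.90 on the same numbers of the vector clone. Its log2 difference was -0.52 over number 1 (SE 0.10, limma adjusted p = 0.0112) and -0.51 over number 2 (adjusted p = 0.0113). Ndufv2, an iron-sulfur subunit at the NADH end, read 11.31 on number 3, against 11.66 and 11.67 on numbers 1 and 2 of the Ms4a8a clone, and 11.14 against 11.80 and 11.70 in the vector clone, a difference of -0.51 over number 1 (adjusted p = 0.0162). For both genes the number 3 arrays were the lowest in each clone. Ndufs7, which carries the cluster next to the quinone site, read 10.88 on number 3, against 11.08 and 11.07 on numbers 1 and 2 of the Ms4a8a clone, and 10.65 against 11.03 and 11.15 in the vector clone (-0.29 over number 1, adjusted p = 0.0983). Ndufv1, which binds NADH and the flavin, read 10.80 on number 3 against 10.96 and 10.99 on numbers 1 and 2 in the Ms4a8a clone and 10.68 against 11.02 and 10.91 in the vector clone (-0.25, adjusted p = 0.103). The same order held in both, without passing the test. Ndufs8, with the levels given above, had a difference of -0.17 (adjusted p = 0.228).

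The accessory subunits of the peripheral arm moved in both directions. Of 7 measured, 2 were lower and 2 higher at number 3 than at number 1, and the median was -0.09, which became 0.03 under cyclic loess scaling. These shares of 28.6% each lay near those of genes with equally strong signal, 33.3% lower and 22.8% higher (16.2% and 14.9% of all genes). Ndufa5, whose promoter is printed above, read 9.90 on number 3, against 10.80 and 10.77 on numbers 1 and 2 of the Ms4a8a clone, and 9.94 against 10.96 and 10.90 on the same numbers of the vector clone. It was 1.95-fold lower at number 3 than at number 1 (log2 -0.96, SE 0.09, limma adjusted p = 0.000998). Both number 3 arrays lay far below the other 4. Ndufa6, a subunit that binds the mitochondrial acyl carrier protein, went the other way. It read 11.94 on number 3, against 10.94 and 10.83 on numbers 1 and 2 of the Ms4a8a clone, and 11.72 against 10.82 and 10.84 in the vector clone. It was 1.93-fold higher at number 3 than at number 1 (log2 0.95, SE 0.10, adjusted p = 0.00131), and its window above holds the NRF1 match. Ndufa7 read 11.59 on number 3 against 11.12 and 10.98 on numbers 1 and 2 in the Ms4a8a clone and 11.40 against 10.92 and 10.87 in the vector clone, and was 1.39-fold higher (log2 0.47, adjusted p = 0.0103). It was thus also above the other arrays at number 3 in each clone. Its difference between the clones, 0.17 (blocked interval -0.01 to 0.35, blocked adjusted p = 0.414), was among the largest of the subunits and did not pass.

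Among the other peripheral subunits, Ndufa9 was lower at number 3 in both contrasts. This subunit, at the junction with the membrane arm, read 11.17 on number 3, against 11.65 and 11.69 on numbers 1 and 2 of the Ms4a8a clone, and 11.03 against 11.65 and 11.67 in the vector clone (-0.55, adjusted p = 0.00646). Ndufs6, a zinc-binding subunit, read 10.97 on number 3 against 11.16 and 11.26 on numbers 1 and 2 in the Ms4a8a clone and 10.89 against 11.26 and 11.27 in the vector clone. It passed against number 2 (-0.33, adjusted p = 0.0404) and not against number 1 (-0.28, adjusted p = 0.0764). Ndufa2 read 11.73 on number 3 against 11.78 and 11.80 on numbers 1 and 2 in the Ms4a8a clone and 11.78 against 11.91 and 11.95 in the vector clone, a difference of -0.09 that did not pass. Ndufs4, whose loss causes Leigh-like disease in mice, is described with the shifts within each clone below.

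In the membrane arm of complex I, 8 of 13 accessory subunits were lower at number 3 than at number 1 and 0 were higher. The lower share was 61.5%, against 16.2% of all genes and 33.3% of genes with equally strong signal. Under cyclic loess scaling 3 were lower. Ndufb8, whose promoter holds the YY1 match, read 10.79 on number 3, against 11.45 and 11.55 on numbers 1 and 2 of the Ms4a8a clone, and 10.84 against 11.42 and 11.44 on the same numbers of the vector clone. It was 1.54-fold lower at number 3 than at number 1 (log2 -0.62, SE 0.09, limma adjusted p = 0.00442). Ndufb2 read 9.92 on number 3, against 10.49 and 10.51 on numbers 1 and 2 of the Ms4a8a clone, and 9.83 against 10.57 and 10.41 in the vector clone (-0.66, adjusted p = 0.00406). Both number 3 arrays were lowest for these genes, by more than any difference among the other 4. Ndufc1 read 10.83 on number 3 against 11.41 and 11.40 on numbers 1 and 2 in the Ms4a8a clone and 10.73 against 11.23 and 11.43 in the vector clone (-0.54, adjusted p = 0.00848). Ndufc2 read 11.55 on number 3 against 11.91 and 11.90 on numbers 1 and 2 in the Ms4a8a clone and 11.53 against 12.00 and 11.94 in the vector clone (-0.41, adjusted p = 0.0177). Ndufa8 and Ndufb7 are cysteine-rich subunits on the intermembrane side. Ndufa8 read 11.47 on number 3 against 11.78 and 11.80 on numbers 1 and 2 in the Ms4a8a clone and 11.44 against 11.86 and 11.88 in the vector clone (-0.37, adjusted p = 0.0264). Ndufb7 read 10.81 on number 3 against 11.13 and 11.10 on numbers 1 and 2 in the Ms4a8a clone and 10.78 against 11.17 and 11.14 in the vector clone (-0.36, adjusted p = 0.0271). In all 4 of these genes the 2 groups of arrays, number 3 and the rest, did not overlap.

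Among the remaining membrane-arm subunits the differences were smaller. Ndufb6 read 11.32 on number 3, against 11.61 and 11.65 on numbers 1 and 2 of the Ms4a8a clone, and 11.31 against 11.65 and 11.62 in the vector clone (-0.31 over number 1, adjusted p = 0.0419). Ndufb3 read 10.07 on number 3 against 10.36 and 10.23 on numbers 1 and 2 in the Ms4a8a clone and 10.03 against 10.35 and 10.26 in the vector clone. It passed against number 1 (-0.30, adjusted p = 0.046) and not against number 2 (-0.20, adjusted p = 0.153). Neither gene passed the F test of the number. Ndufa10, which has the fold of a nucleoside kinase, read 11.60 on number 3 against 11.41 and 11.27 on numbers 1 and 2 in the Ms4a8a clone and 11.58 against 11.41 and 11.23 in the vector clone. It was higher than number 2 (0.34, adjusted p = 0.0305) and did not pass against number 1 (0.18, adjusted p = 0.194). Ndufa1, a small subunit needed for assembly of the complex, read 12.30 on number 3 against 12.39 and 12.13 on numbers 1 and 2 in the Ms4a8a clone and 12.25 against 12.20 and 12.14 in the vector clone, so that number 3 was not set apart. Ndufb5 read 12.34 on number 3 against 12.10 and 12.06 on numbers 1 and 2 in the Ms4a8a clone and 12.19 against 12.18 and 12.04 in the vector clone (0.13, adjusted p = 0.415). Ndufb9, a relative of Ndufa6 in the LYR family, read 11.39 on number 3 against 11.56 and 11.53 on numbers 1 and 2 in the Ms4a8a clone and 11.40 against 11.57 and 11.59 in the vector clone (-0.17, adjusted p = 0.206). Its number 3 arrays were the lowest, within a range too narrow to pass.

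In complex II, the succinate dehydrogenase that also belongs to the citric acid cycle, the catalytic subunits were lower at number 3 than at number 1. Sdhb, the iron-sulfur subunit, read 11.59 on number 3, against 11.93 and 11.87 on numbers 1 and 2 of the Ms4a8a clone, and 11.44 against 12.01 and 11.96 on the same numbers of the vector clone (-0.46, SE 0.10, limma adjusted p = 0.0194). Sdha, the flavoprotein, read 10.52 on number 3 against 10.82 and 10.75 on numbers 1 and 2 in the Ms4a8a clone and 10.46 against 10.91 and 10.74 in the vector clone. It passed against number 1 (-0.38, adjusted p = 0.0262) and not against number 2 (-0.26, adjusted p = 0.0872). The membrane anchors did not pass in either contrast. Sdhd read 11.82 on number 3 against 12.03 and 12.06 on numbers 1 and 2 in the Ms4a8a clone and 11.77 against 12.18 and 12.16 in the vector clone (-0.31, adjusted p = 0.0609). Sdhc, the other anchor, read 11.06 on number 3 against 11.07 and 11.15 on numbers 1 and 2 in the Ms4a8a clone and 10.94 against 10.97 and 10.94 in the vector clone (-0.02, adjusted p = 0.901). It varied less between numbers than the other 3 subunits of the complex.

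Complex III held subunits of both directions. Uqcrc1, a core protein on the matrix side, read 11.13 on number 3, against 11.63 and 11.70 on numbers 1 and 2 of the Ms4a8a clone, and 11.14 against 11.87 and 11.71 on the same numbers of the vector clone. It was 1.53-fold lower at number 3 than at number 1 (log2 -0.62, SE 0.10, limma adjusted p = 0.00628). Cyc1, the cytochrome c1 that hands electrons to cytochrome c, read 12.12 on number 3 against 12.44 and 12.56 on numbers 1 and 2 in the Ms4a8a clone and 12.11 against 12.73 and 12.63 in the vector clone (-0.48, adjusted p = 0.0194). Uqcrfs1, the Rieske iron-sulfur protein, was the subunit of this complex that was higher. It read 12.16 on number 3 against 11.76 and 11.71 on numbers 1 and 2 in the Ms4a8a clone and 12.17 against 11.78 and 11.69 in the vector clone, a 1.32-fold difference (log2 0.40, adjusted p = 0.0176). The 2 clones agreed within 0.02 at each number for this gene. Uqcrq, a small membrane subunit, read 11.37 on number 3 against 11.72 and 11.69 on numbers 1 and 2 in the Ms4a8a clone and 11.52 against 11.62 and 11.68 in the vector clone (-0.23, adjusted p = 0.159). Uqcrc2, the second core protein, had a difference of 0.03 (adjusted p = 0.844) and is described with the shifts within each clone.

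In complex IV, the cytochrome c oxidase, 4 of 7 subunits were lower at number 3 than at number 1. The share was 57.1%, against 16.2% of all genes and 33.3% of genes with equally strong signal. Ndufa4, whose promoter is printed above, read 10.97 on number 3, against 11.99 and 11.85 on numbers 1 and 2 of the Ms4a8a clone, and 10.88 against 11.85 and 11.81 on the same numbers of the vector clone. It was 1.99-fold lower at number 3 than at number 1 (log2 -0.99, SE 0.09, limma adjusted p = 0.000873), the largest difference among the subunits in this contrast. Cox6a1, the widely expressed isoform of its subunit, read 13.23 on number 3 against 13.69 and 13.61 on numbers 1 and 2 in the Ms4a8a clone and 13.20 against 13.53 and 13.53 in the vector clone (-0.39, adjusted p = 0.0209). Cox6b1, on the intermembrane side, read 12.94 on number 3 against 13.31 and 13.28 on numbers 1 and 2 in the Ms4a8a clone and 12.88 against 13.30 and 13.28 in the vector clone (-0.40, adjusted p = 0.0175). In these 3 genes both number 3 arrays lay below the other 4. Cox7a2, the widely expressed isoform of subunit 7a, read 12.80 on number 3 against 13.11 and 13.13 on numbers 1 and 2 in the Ms4a8a clone and 12.82 against 13.11 and 13.17 in the vector clone (-0.30, adjusted p = 0.0476), and missed the threshold in the F test (adjusted p = 0.0523). Cox6c read 12.79 on number 3 against 13.13 and 12.99 on numbers 1 and 2 in the Ms4a8a clone and 12.85 against 13.04 and 12.99 in the vector clone (-0.26, adjusted p = 0.0829). Cox5a read 13.35 on number 3 against 13.43 and 13.45 on numbers 1 and 2 in the Ms4a8a clone and 13.24 against 13.43 and 13.40 in the vector clone (-0.14, adjusted p = 0.326). Cox4i1, the widely expressed isoform of subunit 4, read 13.47 on number 3 against 13.34 and 13.16 on numbers 1 and 2 in the Ms4a8a clone and 13.53 against 13.20 and 13.21 in the vector clone (0.23, adjusted p = 0.133). It was the 1 subunit of complex IV with both number 3 arrays above the others.

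**Figure D3:**
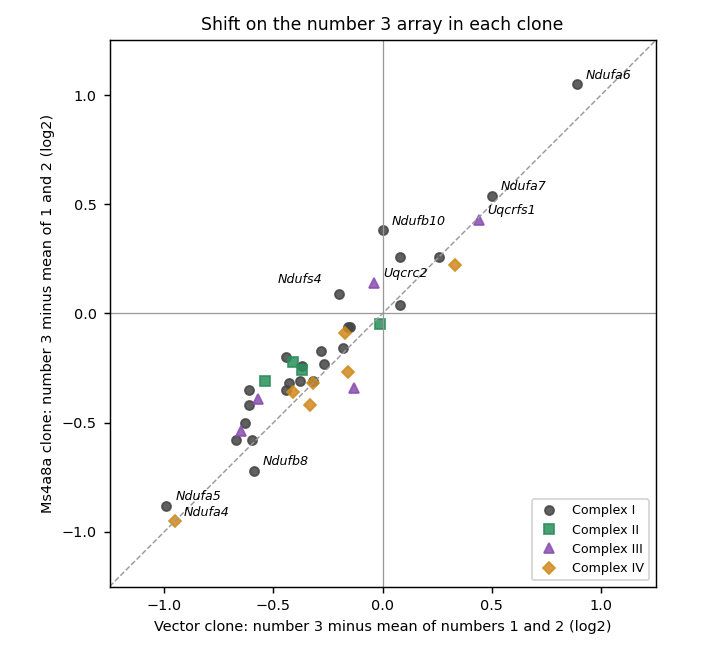
Log2 level on the number 3 array minus the mean of numbers 1 and 2, in the Ms4a8a clone (vertical) and the vector clone (horizontal), 1 point per subunit, with symbols by complex. The dashed line marks equal shifts. Points follow the line from Ndufa4 and Ndufa5 at the lower left to Ndufa6 at the upper right, with 31 of 41 negative in both clones and 7 positive in both.

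Within each clone, the level on number 3 minus the mean of numbers 1 and 2 had a median of -0.26 in the Ms4a8a clone and -0.32 in the vector clone, and that of all genes was -0.02 and -0.04. It was negative in both clones for 31 subunits (75.6%, against 41.8% of all genes), positive in both for 7 and opposite in 3. The shifts of the 41 subunits in one clone and the other had a Pearson correlation of 0.95 and a Spearman correlation of 0.91. Over all genes the Pearson correlation was 0.865. The points come from the same pair of number 3 arrays, and the correlation is a description. Numbers 1 and 2 were close: the median absolute difference between them was 0.04 in the Ms4a8a clone and 0.05 in the vector clone, against 0.10 over all genes in each.

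The 3 subunits with opposite shifts were Ndufs4, Ndufb10 and Uqcrc2. Ndufs4 read 9.77 on number 3, against 9.60 and 9.76 on numbers 1 and 2 of the Ms4a8a clone, and 9.62 against 9.88 and 9.77 in the vector clone, shifts of 0.09 and -0.20. Ndufb10, a cysteine-rich subunit of the membrane arm, read 11.19 on number 3 against 10.85 and 10.78 on numbers 1 and 2 in the Ms4a8a clone and 10.82 against 10.78 and 10.88 in the vector clone, shifts of 0.38 and -0.00. Uqcrc2 read 12.15 on number 3 against 12.02 and 12.01 on numbers 1 and 2 in the Ms4a8a clone and 11.98 against 12.05 and 12.00 in the vector clone, shifts of 0.14 and -0.04. Each rests on 1 array per clone, and none of the 3 passed the F test of the number (adjusted p = 0.491 to 0.916).

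Promoter motifs were set beside the contrast of number 3 over number 1. Of the 3 subunits with an NRF1 match, 1 was lower, 1 was higher and 1 did not pass. Of the 7 with an ETS match, 5 were lower and 2 did not pass, and of the 6 with a YY1 match, 3 were lower and 3 did not pass. Among the 17 subunits with a window and no match, 9 were lower, 2 were higher and 6 did not pass. Sdhd, with NRF1 and ETS matches, is counted under both, and Ndufa6 was the only higher subunit with a match. Over all genes 16.2% were lower and 14.9% higher, and over genes with equally strong signal 33.3% and 22.8%. A relation between match and direction was not tested.

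**Figure D4:**
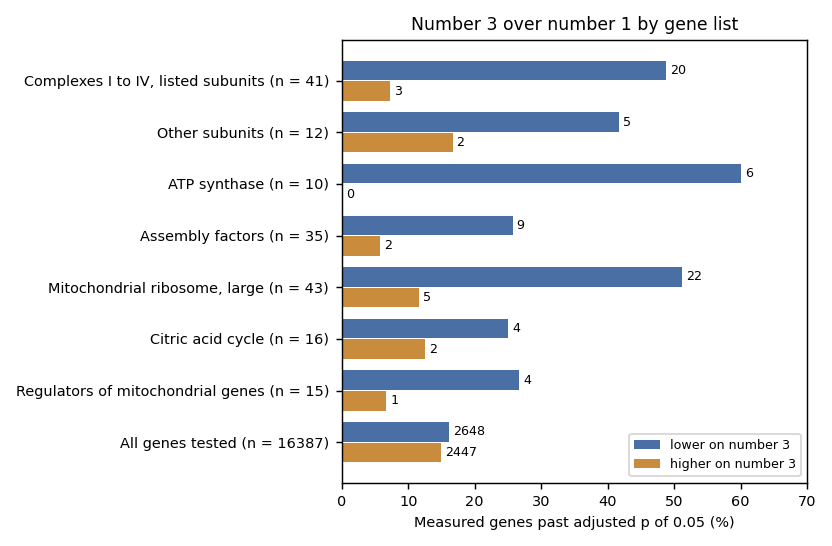
Share of measured genes, in percent, that were lower (blue) or higher (orange) at number 3 than at number 1 with an adjusted p under 0.05, for the subunits of complexes I to IV, 6 related gene lists and all genes. Labels on the bars are numbers of genes. Genes with signal as strong as the listed subunits are not drawn, and 33.3% of them were lower and 22.8% higher. Lower genes outnumber higher genes in every list drawn, an order that turned round under cyclic loess scaling for the other subunits (3 lower and 4 higher) and for all genes.

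Other genes of mitochondrial respiration were taken from background lists, and 0 of them passed between the clones in either fit. Their shares and medians at number 3 differed from list to list. Of 12 other subunits of complexes I to IV and cytochrome c measured, number 3 was lower than number 1 in 5 (41.7%) and higher in 2 (16.7%). All genes had 16.2% lower and 14.9% higher, and those with signal as strong as the listed subunits 33.3% and 22.8%. The median of the 12 was 0.02, and under cyclic loess scaling 3 were lower and 4 higher, with a median of 0.10. Cox7a2l, a factor that joins complexes III and IV in supercomplexes, was the one with the largest difference. It read 12.29 on number 3, against 10.90 and 10.61 on numbers 1 and 2 of the Ms4a8a clone, and 12.18 against 10.73 and 10.58 in the vector clone (log2 1.41, limma adjusted p = 0.000371). Both number 3 arrays were above the other 4. Ndufa12, an accessory subunit of complex I, was lower, at 9.81 on number 3 against 10.52 and 10.70 on numbers 1 and 2 in the Ms4a8a clone and 9.77 against 10.44 and 10.67 in the vector clone (-0.70, adjusted p = 0.00241). Uqcr10, a small subunit of complex III, was lower too (-0.52, adjusted p = 0.00893). Ndufa13, which had one of the larger differences between the clones in this list (0.17, blocked adjusted p = 0.489), was higher at number 3 (0.42, adjusted p = 0.0324). Cycs, somatic cytochrome c, read 3.34 to 3.56 on its probe set, below 3.85, the 25th percentile of the gene means. Such a low probe signal does not show that the transcript is absent.

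ATP synthase, which uses the proton gradient, had 10 measured genes, of which 6 were lower and 0 higher at number 3 than at number 1. The lower share was 60%, against 16.2% of all genes and 33.3% of those with signal as strong as the listed subunits. The median of -0.37 became -0.22 under cyclic loess scaling, with 4 lower and 1 higher. Atp5g3, a subunit of its membrane ring, read 12.91 on number 3, against 13.51 and 13.53 on numbers 1 and 2 of the Ms4a8a clone, and 12.97 against 13.72 and 13.56 in the vector clone (-0.68, limma adjusted p = 0.00355). Atp5k and Atp5j2, small membrane subunits, had differences of -0.65 (adjusted p = 0.00319) and -0.63 (adjusted p = 0.00382). Of 35 assembly factors, which help to build the complexes, 9 were lower (25.7%, against 16.2% of all genes) and 2 higher, with a median of -0.13, which became -0.08 under cyclic loess scaling. Cox11, which delivers copper to complex IV, read 8.17 on number 3 against 8.90 and 9.12 on numbers 1 and 2 in the Ms4a8a clone and 8.21 against 9.06 and 9.21 in the vector clone (-0.80, adjusted p = 0.00169). Coa7, another factor of complex IV, was also lower (-0.73, adjusted p = 0.00237), as was Ndufaf5, a factor of complex I (-0.76, adjusted p = 0.00533). Surf1, a complex IV factor, had a difference of 0.43 that did not pass (adjusted p = 0.09).

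The large subunit of the mitochondrial ribosome, which makes the proteins encoded in mitochondrial DNA, had 43 measured genes. At number 3, 22 were lower than at number 1 (51.2%) and 5 higher (11.6%), with a median of -0.35. The shares were 16.2% and 14.9% over all genes. They were 33.3% and 22.8% over genes with signal as strong as the listed subunits, which not all 43 genes had. Under cyclic loess scaling 18 of the 43 were lower and 6 higher, with a median of -0.28. Mrpl18 read 8.88 on number 3, against 10.10 and 10.30 on numbers 1 and 2 of the Ms4a8a clone, and 8.70 against 9.94 and 10.45 in the vector clone (-1.23, limma adjusted p = 0.000976). Mrpl54 and Mrpl20 had differences of -1.20 (adjusted p = 0.000519) and -1.06 (adjusted p = 0.000734). These 3 differences were larger in size than that of any of the 41 listed subunits. In the citric acid cycle, 4 of 16 genes were lower (25%, against 16.2% of all genes and 33.3% of those with signal as strong as the subunits) and 2 higher, with a median of -0.24, which became -0.14 under cyclic loess scaling. Suclg2, of the GTP-forming succinyl-CoA ligase, and Fh1, fumarate hydratase, were lower (-0.69, adjusted p = 0.0034, and -0.56, adjusted p = 0.0056). Cs, citrate synthase, was higher, at 12.40 on number 3 against 11.69 and 11.66 on numbers 1 and 2 in the Ms4a8a clone and 12.17 against 11.74 and 11.59 in the vector clone (0.57, adjusted p = 0.00905).

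Of 15 regulators of mitochondrial genes, 4 were lower (26.7%, against 16.2% of all genes) and 1 higher at number 3 than at number 1. The median of -0.11 became -0.05 under cyclic loess scaling, with 3 lower and 1 higher. Nrf1, the factor of the first motif, read 6.89 on number 3, against 7.60 and 7.61 on numbers 1 and 2 of the Ms4a8a clone, and 7.01 against 7.76 and 7.71 in the vector clone (-0.73, limma adjusted p = 0.00204). Gabpa, the DNA-binding subunit of GABP, read 8.20 on number 3 against 8.78 and 8.99 on numbers 1 and 2 in the Ms4a8a clone and 8.14 against 8.95 and 8.88 in the vector clone (-0.70, adjusted p = 0.00482). Both were below the other arrays at number 3 in each clone. Tfb1m, a methyltransferase of mitochondrial ribosomal RNA, was lower as well (-0.40, adjusted p = 0.0196). Tfam, which packages mitochondrial DNA, did not pass (-0.05, adjusted p = 0.758). The largest absolute differences between the clones in this list were -0.21 for Gabpb1, the partner of Gabpa, and -0.16 for Tfam (blocked adjusted p = 0.357 and 0.436).

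Macrophage markers moved with the number in the opposite direction. Of the 12 listed, 7 were higher and 0 lower at number 3 than at number 1, with a median of 0.39. The higher share was 58.3%, against 14.9% of all genes and 22.8% of those with signal as strong as the subunits. The lower shares of these backgrounds were 16.2% and 33.3%. The summed log2 level of the 12 markers was 128.92 and 130.1 on the number 3 arrays of the Ms4a8a and the vector clone, against 118.52 to 120.3 on the other 4 arrays. Most of this rise came from Adgre1, Aif1 and Itgam, although 11 of the 12 were above the mean of numbers 1 and 2 in both clones. Adgre1, a surface receptor of mature macrophages, read 9.46 on number 3, against 7.33 and 7.36 on numbers 1 and 2 of the Ms4a8a clone, and 9.39 against 6.76 and 7.05 in the vector clone (2.39, limma adjusted p = 0.000292). Itgam, which encodes CD11b, read 8.33 on number 3 against 7.15 and 6.19 on numbers 1 and 2 in the Ms4a8a clone and 9.36 against 7.57 and 7.02 in the vector clone (1.48, adjusted p = 0.00126). Aif1, an actin-binding protein of macrophages, was higher too (1.99, adjusted p = 0.000653). Lyz2, lysozyme, was at 13.89 or above on all arrays and did not pass (0.24, adjusted p = 0.159). The summed levels of B and T cell, epithelial and fibroblast markers on the number 3 arrays were 29.2 and 29.12, 22.53 and 22.45, and 26.27 and 25.34, against 28.35 to 29.44, 21.67 to 22.74 and 24.65 to 25.75 on the other arrays. Of these markers, Cd79b was higher than number 1 (0.42, adjusted p = 0.0162) at levels of at most 4.08. The part of these marker changes in the differences of the respiratory chain was not tested.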

How the data were processed

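The values were those of the deposited series table, 1 per probe set and array, which from their range (2.24 to 14.6) are on a log2 scale and which the authors had already normalised: the 6 columns held identical sorted values. The summary method and its software are not given in the sources used here. Among its 17370 probe sets are 64 Affymetrix controls, 16387 that the platform annotation pairs with 1 symbol, and 919 left unnamed. Symbols were updated through RefSeq gene IDs (GRCm38.p6), found for 16358, and 1773 changed.

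All 16387 genes were fitted with limma 3.58.1 in R 4.3.3 (statmod 1.5.0 installed), without filter or offset. P-values are two-sided and were adjusted by Benjamini-Hochberg across the whole table, and 0.05 was the limit for a call. The clones were compared without a term for the replicate number, and with it as a block. The numbers were compared in a model with the clone, by a moderated F test and all 3 pairwise contrasts, which leaves 2 residual degrees of freedom. Same-numbered arrays deviated together from their clone means (correlations of 0.709, 0.809 and 0.865 for numbers 1, 2 and 3, above the limit of 0.1), so blocked results are given beside the others. Ms4a8a array 2 with vector array 1 (0.713) and Ms4a8a array 1 with vector array 2 (0.617) also correlated, so these values do not show that numbers 1 and 2 are pairs. Separate cultures are not stated for the arrays of a clone, so the p-values reflect array-to-array spread that may be technical. The number of arrays limits the precision.

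The members and lists were chosen with earlier results of these data known. Values on every array were to be given for subunits past the F test, those with the largest and smallest blocked clone difference in each class and the one with the widest range between numbers in each complex, 28 in all; the other 13 are given outside that rule. From each other list, up to 3 genes past the threshold and the 2 with the largest clone difference were taken. The background of genes with equally strong signal was added after seeing the data. The NRF1 pattern was replaced once, after results were seen, by the stricter consensus. The scripts were tested on simulated data. Alternatives left out each array, filtered low genes, rescaled the arrays, used a trended prior or weighted the arrays.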

Additional observations from a re-analysis of the deposited data

Results flagged for a closer look

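Ndufs4, an accessory subunit of complex I, and Uqcrc2, a core protein of complex III, were flagged for the order of their arrays. Number 3 lay above both other arrays of the Ms4a8a clone and below both other arrays of the vector clone. Some margins were narrow: Ndufs4 read 9.77 on number 3 and 9.76 on number 2 of the Ms4a8a clone, and Uqcrc2 11.98 and 12.00 in the vector clone. Ndufb10, whose shifts of 0.38 and -0.00 differed more, lacked this order. For Ndufs4 the level on number 3 minus the mean of numbers 1 and 2 was 0.09 in the Ms4a8a clone and -0.20 in the vector clone, a difference of 0.29 on the log2 scale. For Uqcrc2 the shifts were 0.14 and -0.04, a difference of 0.18. With 1 array per clone and number, this difference was not tested.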

How the results depend on the processing

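Among the results recomputed, no called value changed its sign under the alternatives run. Between the clones 0 subunits passed in all 16 alternatives. The number of all genes that passed, 7 with all arrays, was 149 with the replicate block, and 101, 104 and 434 with the replicate block and both arrays of number 1, 2 or 3 left out. It was 0 to 8 when single arrays were left out (0 without Ms4a8a array 2, vector array 1 or vector array 3, and 1 without Ms4a8a array 1 or vector array 2), 1 when genes below the median were left out and 47 with array weights. The median clone difference of the subunits, 0.01, lay between -0.11 and 0.09 without single arrays. These fits had no block, and the 2 ends came from leaving out a number 3 array, which kept number 3 in 1 clone only. The replicate block changed no call of a subunit. Between the numbers, leaving out single arrays gave 8 to 16 subunits in the F test (19 with all arrays). For number 3 over number 1 it gave 5 to 18 lower and 1 to 3 higher subunits and medians of -0.33 to -0.30. For number 3 over number 2 it gave 5 to 18 lower and 1 to 3 higher and medians of -0.32 to -0.22, and for number 2 over number 1 medians of -0.05 to 0.02. Cyclic loess scaling gave 9 and 8 lower subunits and a median of -0.19 in both contrasts with number 3. The causes were not tested. For the 19 subunits past the F test, 46 of the refits of number 3 over number 1 lost a call and 182 kept theirs, and 43 and 185 did so for number 3 over number 2. Each number has 1 array per clone, which limits every contrast between numbers. The shares of all genes that passed also fell when an array of number 1 or 2 was left out.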

Other observations

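Isoforms of the subunits that are typical of other tissues or of hypoxia were measured for 9 of 9 listed genes, and 0 passed between the clones. At number 3, 2 were higher and 2 lower than at number 1 (22.2% each, against 14.9% higher and 16.2% lower over all genes). Cox6a2, the isoform of heart and skeletal muscle, read 9.06 on number 3, against 6.90 and 7.16 on numbers 1 and 2 of the Ms4a8a clone, and 10.26 against 7.49 and 7.29 in the vector clone (log2 2.46, limma adjusted p = 0.00102). This was opposite in direction to Cox6a1, its widely expressed counterpart (-0.39). Cox7a1, another muscle isoform, read 4.64 on number 3 against 5.64 and 5.20 on numbers 1 and 2 in the Ms4a8a clone and 4.37 against 5.53 and 5.72 in the vector clone (-1.08, adjusted p = 0.00797). Cox4i2, an isoform known from lung and from hypoxia, was higher than number 1 (0.43, adjusted p = 0.0154) and did not pass against number 2 (-0.12, adjusted p = 0.405). Between the clones, Cox6a2 had a difference of -0.64 (blocked adjusted p = 0.241).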
